A study of Homo sapiens with 6 samples.

Results

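The genes described here are the D-type cyclins *CCND1*, *CCND2* and *CCND3*, the E-type cyclins *CCNE1* and *CCNE2*, the kinases *CDK2*, *CDK4* and *CDK6*, and the phosphatase *CDC25A*. They were chosen by name with earlier results of these data known, as were the lists of other genes below. Of the genes described, 9 of 9 were found by their Ensembl identifiers among the 21475 genes of the expression tables. HaCaT, a spontaneously immortalized human keratinocyte cell line, was studied as 3 WT and 3 *FGFR2* KO lines, with 1 RNA-seq library from each. In the KO lines, exon 7 of *FGFR2* had been targeted with Cas9 and a single guide RNA, and each line was grown from a sorted single cell, so that a KO line is 1 clone. The WT lines kept *FGFR2*, and all lines grew in medium with serum, with no treatment named in the labels. The study calls the HaCaT lines of these data clonally expanded in one place and counts the original population among its WT lines in another, and the labels do not settle whether a WT library came from it. For RNA work in general, the methods describe growth to confluency, without saying so of the sequenced cultures. The comparison asks how expression of these genes differs in the absence of FGFR2.

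D-type cyclins are made in response to mitogens and activate CDK4 and CDK6, which start the phosphorylation of the retinoblastoma protein in G1. This frees E2F transcription factors, whose targets include the E-type cyclins and *CDC25A*. E-type cyclins activate CDK2, which completes the phosphorylation and starts DNA replication. CDC25A removes inhibitory phosphates from CDK2, and the inhibitors encoded by the *CDKN1* and *CDKN2* genes hold these kinases back. In the epidermis, this pathway operates in the basal layer and is shut down as keratinocytes differentiate.

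Promoter sequences of 2 members are shown because these genes had among the largest differences below and carry letters that known regulators of this step recognise. RefSeq (GRCh38.p14) held promoter windows, from 250 bases before to 50 bases after a transcription start, for 5 of the 9 members: *CCND3*, *CCNE1*, *CDK4*, *CDK6* and *CDC25A*. *CCND3* and *CDK6* had several windows. The 250 bases before the start are printed 5′ to 3′ on the minus strand, at chr3:48188418-48188667 for *CDC25A* and chr12:57752311-57752560 for *CDK4*. Capitals mark an E2F motif in *CDC25A* and E-box motifs, the letters that MYC and related factors bind, in *CDK4*.

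CDC25A: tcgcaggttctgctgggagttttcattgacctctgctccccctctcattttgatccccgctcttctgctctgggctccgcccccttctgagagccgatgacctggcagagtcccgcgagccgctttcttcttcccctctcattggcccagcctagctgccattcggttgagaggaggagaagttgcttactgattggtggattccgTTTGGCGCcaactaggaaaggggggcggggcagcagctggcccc

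CDK4: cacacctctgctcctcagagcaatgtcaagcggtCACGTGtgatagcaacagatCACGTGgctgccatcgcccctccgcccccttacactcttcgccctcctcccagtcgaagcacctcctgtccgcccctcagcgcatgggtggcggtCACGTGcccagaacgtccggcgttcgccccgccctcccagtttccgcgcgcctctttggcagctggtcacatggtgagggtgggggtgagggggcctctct

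The window of *CDC25A* held 1 E2F motif (TTTCCCGC, TTTCGCGC, TTTGCCGC or TTTGGCGC on either strand), whose first letter lies 44 bases before the start. Such a motif was present in 3.31% of the 35116 promoter windows in RefSeq, and in none of the other windows of the members. The window of *CDK4* held 3 E-boxes (CACGTG, which reads the same on both strands), 216, 196 and 101 bases before the start. At least 1 E-box was present in 7.26% of all windows, and 3 or more in 33 windows (0.094%). For *CDK6*, the window at chr7:92836524-92836823 held 1 E-box, after its start, and that at chr7:92833910-92834209 held 0. No window of the members contained the AP-1 motif TGANTCA or the CRE motif TGACGTCA, which were present in 7.71% and 1.85% of all windows. These matches describe letters only, and binding of a factor was not measured.

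The values are FPKM, fragments scaled to gene length and to library size, so that levels can be compared between genes. Where 3 values of a group are listed, they stand in the order of replicates 1, 2 and 3, each a cell line. All 9 members passed the minimum mean of 0.5 FPKM that left 12241 genes for the test. Depth, estimated from the steps between low values, was 67600000 to 88000000 fragments per library, and 1 fragment on 1 kb then amounts to between 0.0114 and 0.0148 FPKM. The lowest value of any member, 1.14 FPKM, lay far above this. The targeted gene, *FGFR2*, was at 21.6, 39.7 and 15.0 FPKM across the WT lines and 3.04, 2.26 and 4.31 FPKM across the KO lines, a log2 fold change of -2.73 (standard error 0.36, limma, adjusted p = 0.261). Its limma p before adjustment was 9.2e-05. The adjustment gave the same 0.261 to genes with a larger limma p, such as *CCND3* (0.0238). Of 9 keratinocyte markers, 0 were below 1 FPKM in every library, and their summed FPKM was 11365 to 18444 in WT and 14991 to 27289 in KO libraries. The summed FPKM of 6 markers of differentiating keratinocytes was 1535 to 8510 in WT libraries. In the KO libraries it was 500 to 5427, with the lowest value in KO replicate 3. Below 1 FPKM in every library were 3 of 6 fibroblast, 3 of 4 melanocyte, 3 of 4 leukocyte and 1 of 3 endothelial markers. *COL1A1* (6.82 to 16.7 FPKM), *CD68* (4.41 to 20.4 FPKM) and *VWF* (5.66 to 27.1 FPKM) were present in all libraries. *DCN* was at 15.5 and *CDH5* at 4.92 FPKM in WT replicate 2, against up to 1.66 and 0.128 FPKM in the other libraries. Mitochondrial genes took 21.5% to 27.6% of the FPKM in WT and 11.9% to 23.7% in KO libraries, with the lowest share again in KO replicate 3.

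*CDC25A*, *CCNE1*, *CCNE2*, *CDK4*, *CDK2* and *CCND3* were higher in each KO library than in any WT library, while *CCND1*, *CCND2* and *CDK6* overlapped. With limma and Benjamini-Hochberg adjustment, 0 of the 9 members and 0 of the 12241 tested genes (0%) were called, that is, had an adjusted p up to 0.05 and a log2 fold change of 0.5 or more in either direction (the fold minimum). The study, whose DESeq2 test was not run here, did report differentially expressed genes at an FDR of 0.05, with *FGFR2* strongly lower in KO. Taking instead the limma p before adjustment (up to 0.05) and the same fold minimum, 6 of 9 members were higher and 0 lower in KO, where 10.2% of all tested genes were higher and 2.33% lower (1251 and 285 genes). Under median-of-ratios scaling, 5 members were higher, without *CCND3*, and of all tested genes 818 were higher and 488 lower. All KO libraries lay above all WT libraries in 6 of 9 members against 18.3% of tested genes, and below them in 0 of 9 members against 5.77%. The median log2 fold change was 0.75 over the members and 0.09 over all tested genes. In bulk RNA, a larger share of cells in a given phase and more RNA per cell cannot be told apart.

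**Figure D1:**
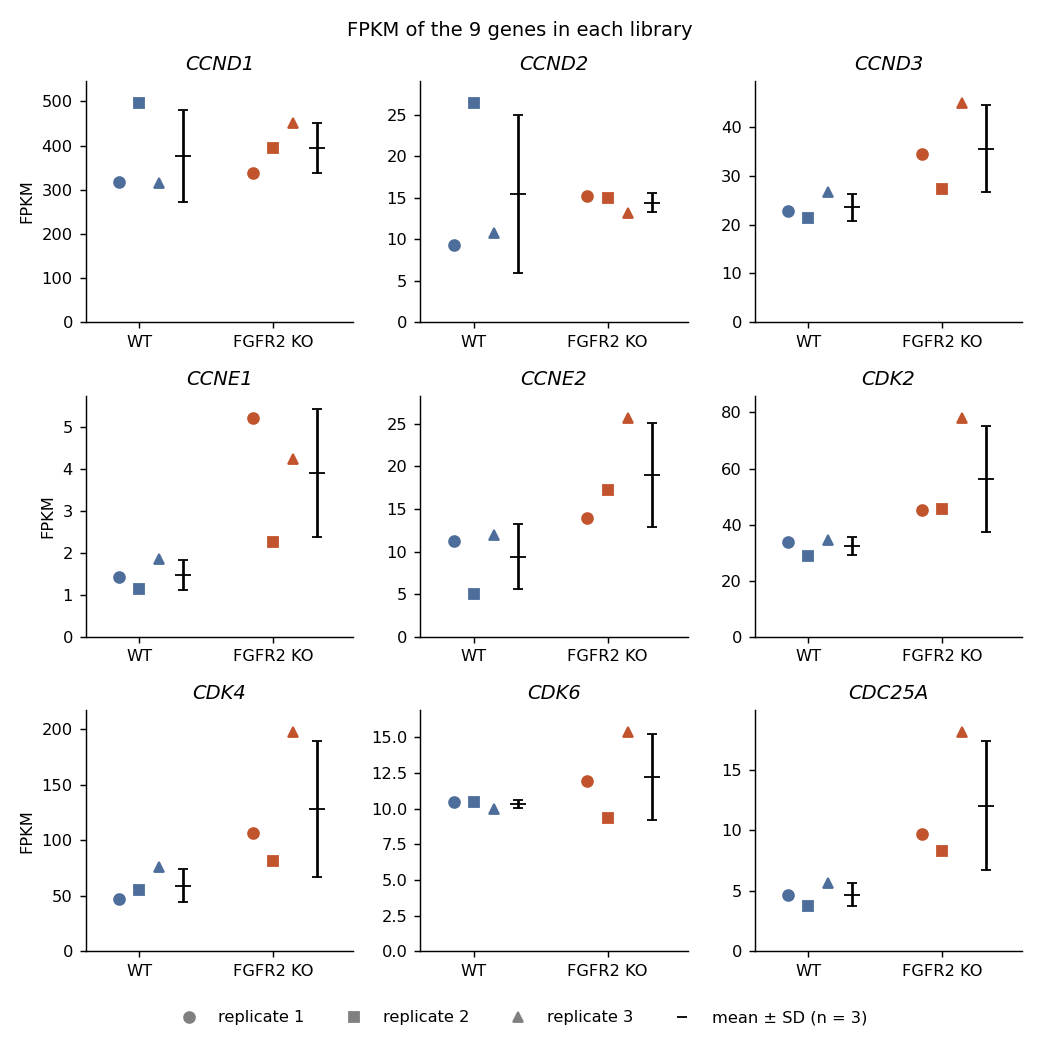
FPKM (y axis, linear from 0, a separate scale in each panel) of the 9 members in the WT and *FGFR2* KO libraries. Symbols mark the replicate, bars the mean ± SD (n = 3 cell lines). The KO libraries lie above all WT libraries for *CCND3*, *CCNE1*, *CCNE2*, *CDK2*, *CDK4* and *CDC25A*, and overlap them for the other 3 genes.

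*CCND1* (ENSG00000110092, chromosome 11 from 69641156 to 69654474 in GRCh38) encodes cyclin D1, the main D-type cyclin of many epithelia. It had 318.6, 496.6 and 315.5 FPKM across the WT lines, and 338.4, 395.2 and 450.7 FPKM across the KO lines. WT replicate 2 was the highest of all libraries, and the groups overlapped. The means of 377 ± 104 FPKM in WT and 395 ± 56.2 FPKM in KO (SD, n = 3) gave a log2 fold change of 0.09 (95% confidence interval -0.42 to 0.61, limma, adjusted p = 0.854). The sign depended on the scaling and on single libraries, with a log2 fold change of -0.01 under median-of-ratios scaling and -0.02 without WT replicate 3.

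*CCND2* (ENSG00000118971, chromosome 12 from 4269771 to 4305353) encodes cyclin D2. The WT lines had 9.26, 26.4 and 10.7 FPKM, and the KO lines had 15.2, 14.9 and 13.2 FPKM. The KO lines were close to each other and lay between WT replicate 2 and the other WT lines. The log2 fold change was 0.06 (95% confidence interval -0.78 to 0.89, limma, adjusted p = 0.949) and moved to 0.51 without WT replicate 2 and -0.22 without WT replicate 1.

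*CCND3* (ENSG00000112576, chromosome 6 from 41934934 to 42050357), the gene of cyclin D3, was the D-type cyclin whose groups did not overlap. It had 22.7, 21.3 and 26.6 FPKM across the WT lines. The KO lines had 34.5, 27.4 and 45.0 FPKM. The lowest KO library, replicate 2, was only just above the highest WT library, replicate 3. The KO mean was 1.51 times the WT mean, with a log2 fold change of 0.56 (standard error 0.20, limma, adjusted p = 0.261). Under median-of-ratios scaling the log2 fold change was 0.47, under the fold minimum.

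Since *CCND1* made up 89.4% to 91.2% of the D-type cyclin FPKM in WT and 87.2% to 90.3% in KO libraries, the sum of the 3 genes followed it. The sum was 351, 544 and 353 FPKM across the WT lines and 388, 438 and 509 FPKM in KO lines. The KO mean was 1.07 times the WT mean, within the spread between lines (two-sided exact permutation test, p = 0.7). The share of *CCND2* was 3.51 ± 1.18% in WT and 3.31 ± 0.673% in KO libraries (SD, n = 3, exact permutation test, p = 0.8).

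*CCNE1* (ENSG00000105173, chromosome 19 from 29811991 to 29824312) encodes cyclin E1 and had the lowest level of the 9 genes in every library. It was at 1.41, 1.14 and 1.86 FPKM across the WT lines, and at 5.22, 2.25 and 4.23 FPKM across the KO lines. All KO libraries were above all WT libraries, with KO replicate 2 nearest to WT. The means were 1.47 ± 0.364 and 3.90 ± 1.52 FPKM (SD, n = 3), a log2 fold change of 1.11 (standard error 0.31, limma, adjusted p = 0.261). Because this level is near the pseudocount, adding 0.1 in place of 0.5 FPKM gave a log2 fold change of 1.29, and adding 1 FPKM gave 0.95.

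*CCNE2* (ENSG00000175305, chromosome 8 from 94879770 to 94896678), the gene of cyclin E2, was the more abundant E-type cyclin. It had 11.2, 4.99 and 11.9 FPKM across the WT lines and 14.0, 17.2 and 25.7 FPKM across the KO lines. WT replicate 2 was lowest and KO replicate 3 highest, and the log2 fold change of 1.02 (standard error 0.36, limma, adjusted p = 0.261) became 0.64 without WT replicate 2 and 0.41 without both. *CCNE1* contributed 11.2% to 18.6% of the E-type cyclin FPKM in WT and 11.5% to 27.2% in KO libraries, so that cyclin E2 transcripts prevailed throughout. The summed E-type cyclins were 12.7, 6.13 and 13.8 FPKM in WT and 19.2, 19.5 and 30.0 FPKM in KO lines. Their KO mean was 2.11 times the WT mean (p = 0.1 by exact permutation, two-sided, which is the lowest that 3 lines against 3 allow).

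*CDK4* (ENSG00000135446, chromosome 12 from 57747727 to 57756013) had the highest level of the 3 kinases. The WT lines had 47.2, 54.9 and 75.5 FPKM, and the KO lines had 106, 80.9 and 197 FPKM. KO replicate 3 stood far above the other KO lines, and KO replicate 2 was just above WT replicate 3. The KO mean of 128 ± 61.2 FPKM was 2.17 times the WT mean of 59.2 ± 14.7 FPKM (SD, n = 3), with a log2 fold change of 1.03 (standard error 0.33, limma, adjusted p = 0.261). Without KO replicate 3, the log2 fold change of *CDK4* was 0.67.

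*CDK6* (ENSG00000105810, chromosome 7 from 92604921 to 92836573), which binds the same cyclins as *CDK4*, had 10.5, 10.5 and 9.99 FPKM across the WT lines. The KO lines had 11.96, 9.31 and 15.4 FPKM. The WT lines were nearly equal, and the KO lines lay on both sides of them. The log2 fold change was 0.21 (95% confidence interval -0.25 to 0.66, limma, adjusted p = 0.598), and 0.03 without KO replicate 3 or 0.38 without KO replicate 2. *CDK6* made up 18.1%, 16.0% and 11.7% of the summed *CDK4* and *CDK6* FPKM across the WT lines, and 10.1%, 10.3% and 7.22% across the KO lines. This share does not depend on how the libraries are scaled, and it was lower in each KO than in all WT libraries (p = 0.1 in a two-sided exact permutation test).

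*CDK2* (ENSG00000123374, chromosome 12 from 55966781 to 55972789), the partner of the E-type cyclins, was at 33.7, 28.7 and 34.5 FPKM across the WT lines. The KO lines had 45.2, 45.7 and 78.2 FPKM. KO replicates 1 and 2 were nearly equal and above all WT lines, and KO replicate 3 was far higher. The KO mean was 1.74 times the WT mean, and the log2 fold change 0.75 (standard error 0.23, limma, adjusted p = 0.261). Without KO replicate 3 it was 0.49.

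*CDC25A* (ENSG00000164045, chromosome 3 from 48157146 to 48188417) had the largest log2 fold change of the 9 members. It had 4.64, 3.74 and 5.67 FPKM across the WT lines, and 9.70, 8.26 and 18.1 FPKM across the KO lines. The lowest KO line was well above the highest WT line. The WT mean was 4.68 ± 0.967 FPKM and the KO mean 12.02 ± 5.30 FPKM (SD, n = 3), a log2 fold change of 1.21 (standard error 0.30, limma, adjusted p = 0.261). It was between 0.88 and 1.43 with any 1 library left out, and 0.75 without WT replicate 2 and KO replicate 3.

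**Figure D2:**
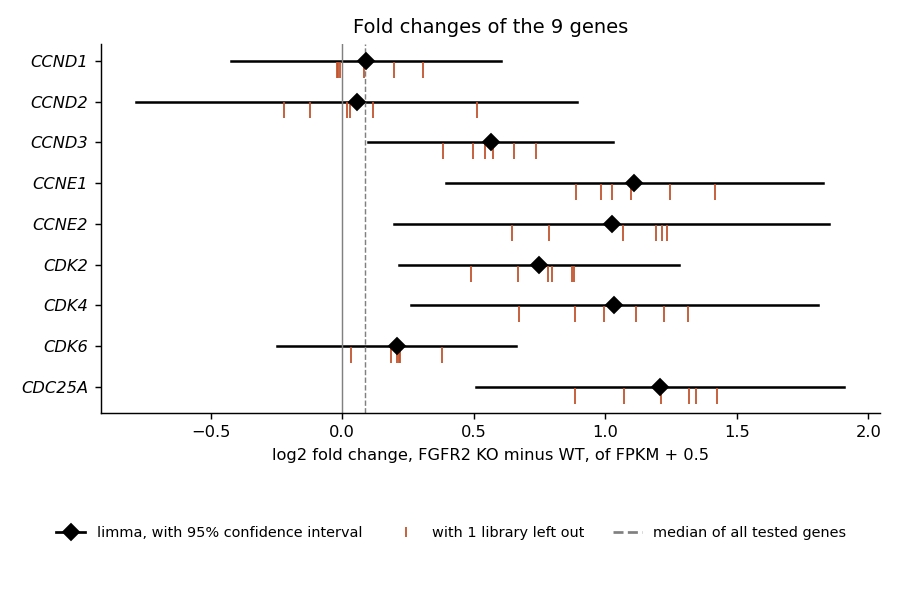
Log2 fold change between *FGFR2* KO and WT of FPKM + 0.5 (x axis) for the 9 members. Diamonds and lines show the limma estimate with its 95% confidence interval, red ticks the estimate with each of the 6 libraries left out, and the dashed line the median of all tested genes at 0.09. The intervals of *CCND1*, *CCND2* and *CDK6* span 0, and those of the other genes lie above 0, without adjustment for the number of genes tested.

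KO replicate 3 had the highest FPKM of all libraries for *CCND3*, *CCNE2*, *CDK2*, *CDK4*, *CDK6* and *CDC25A*. It also had the lowest summed level of differentiation markers and the lowest mitochondrial share, whose part in the differences was not tested. Among the WT lines, replicate 2 had the lowest such sum and share. Of these lines it was lowest for *CCND3*, *CCNE1*, *CCNE2*, *CDK2* and *CDC25A*, and highest for *CCND1*, *CCND2* and, by little, *CDK6*. Without KO replicate 3, the members *CCNE1*, *CDK4* and *CDC25A* (3 of 9) remained past the unadjusted p of 0.05 and the fold minimum, where 539 of all tested genes were higher. Without WT replicate 1, 4 members were higher (*CCNE1*, *CCNE2*, *CDK2* and *CDC25A*), as were 767 of all tested genes. Without both KO replicate 3 and WT replicate 2, the libraries at opposite ends, it was 2 members: *CDC25A* and, with a log2 fold change of 0.57, *CCND2*, beside 543 of all tested genes. In the WT lines, the members ranked from *CCND1* over *CDK4*, *CDK2*, *CCND3*, *CCND2*, *CDK6*, *CCNE2* and *CDC25A* to *CCNE1*. The ranges of neighbours overlapped from *CCND3* to *CDC25A*, and *CCND1*, *CDK4*, *CDK2* and *CCNE1* stood clear of theirs. In the KO lines *CCNE2* ranked above *CCND2* and *CDK6*, and the ranges overlapped from *CCNE2* to *CDC25A*.

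The copy number of these genes was not measured, but levels of neighbouring genes were. Within 5 Mb on either side, the median log2 fold change of the tested genes was 0.22 around *CCNE1* (28 genes), 0.14 around *CDC25A* (137 genes) and 0.10 around *CCNE2* (36 genes). It was 0.04 around *CDK4* (117 genes), 0.03 around *CDK2* (136 genes) and 0.08 around *CCND3* (76 genes). In WT replicate 2, the median log2 value relative to the WT mean was 0.21 around *CCND1* (152 genes). Over the other tested genes of chromosome 11 (715 genes) it was 0.23 in WT replicate 2. In WT replicates 1 and 3 the chromosome 11 median was -0.12 and -0.11. After centring every library on its chromosome medians, the log2 fold changes were 1.10 for *CDC25A*, 1.01 for *CCNE1*, 0.92 for *CDK4*, 0.81 for *CCNE2*, 0.64 for *CDK2* and 0.48 for *CCND3*. Some members overlap genes on the opposite strand, among them *TSPAN31* at *CDK4*, with 7.80 to 23.1 FPKM and the lowest value in KO replicate 3, and *PMEL* at *CDK2*, with 0.697 to 2.43 FPKM. *LTO1*, opposite *CCND1*, was at 19.0 to 32.6 FPKM and, like *CCND1*, highest in WT replicate 2. *CCND2* shares its strand with an overlapping gene, ENSG00000285901, at 0.965 to 4.14 FPKM. The libraries were strand-specific, but whether quantification used the strand is not given in the sources used here.

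The members could be set against cyclins and kinases of later phases within each library, by ratios chosen after the values had been seen. The ratio of *CDC25A* to *CDC25C*, the phosphatase of mitotic entry, was 0.262, 0.255 and 0.275 across the WT lines and 0.652, 0.544 and 1.36 across the KO lines. The WT lines were nearly equal, and each KO line lay well above them (two-sided exact permutation test, p = 0.1). The ratio of *CDK2* to *CDK1*, the mitotic kinase, was 0.536, 0.468 and 0.525 in WT and 0.781, 0.811 and 1.11 in KO lines. The ratio of *CCNE1* to *CCNA2*, the cyclin of S and G2 phase, was 0.0473 ± 0.00615 in WT and 0.125 ± 0.0403 in KO lines (SD, n = 3), and that of *CCNE2* to *CCNA2* was 0.296 ± 0.0904 and 0.619 ± 0.169. In each of these 4 ratios every KO line lay above every WT line (exact permutation test, p = 0.1, or 0.156 adjusted over a family of 14 such values). The KO mean was 3.23 times the WT mean for *CDC25A* to *CDC25C*. With *CDC25B* in place of *CDC25C* it was 2.20 times, again without overlap of the groups. The log2 fold change was -0.27 for *CDC25C* and 0.26 for *CDC25B*. The ratio of *CCND3* to *CCND1* overlapped between the groups (exact permutation test, p = 0.3).

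**Figure D3:**
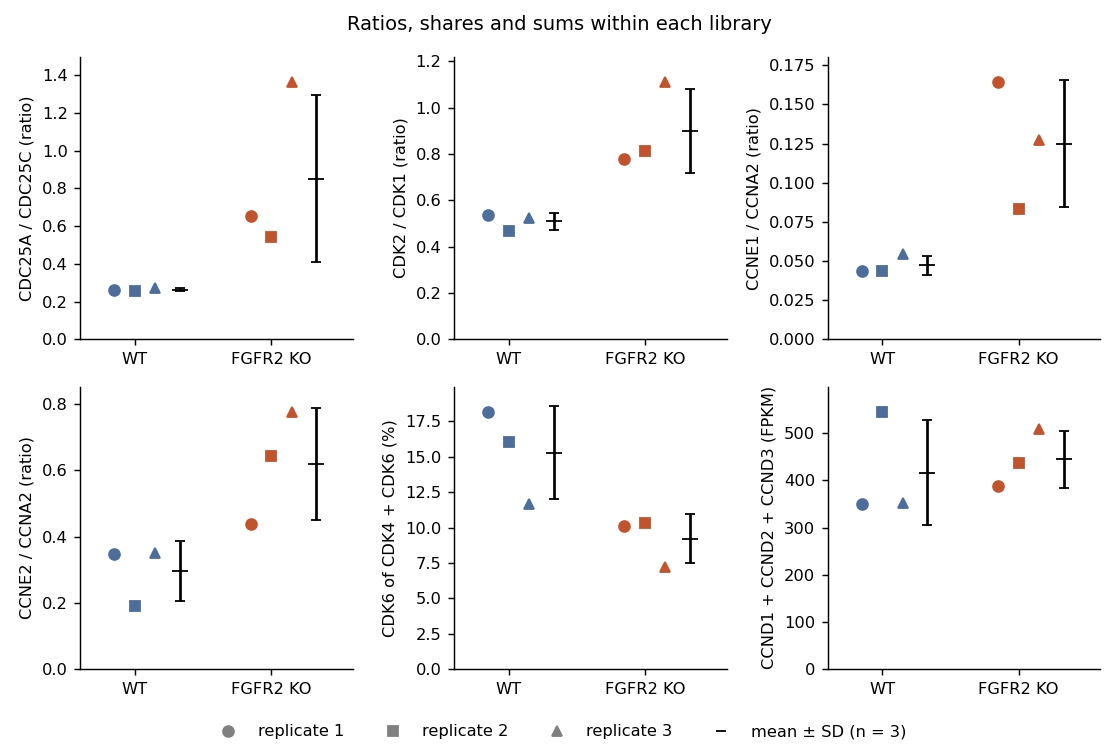
Ratios of FPKM, the *CDK6* share in percent and the summed D-type cyclins in FPKM (y axes, linear from 0) within each WT and *FGFR2* KO library. Symbols mark the replicate, bars the mean ± SD (n = 3 cell lines). In the 4 ratios the KO libraries lie above the WT libraries and in the *CDK6* share below them, whereas the sums of D-type cyclins overlap.

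Among 8 CDK inhibitor genes, 7 had a lower mean log2 value in KO, where 4821 of the 12241 tested genes were lower and 7420 higher. The exception, *CDKN3*, had a log2 fold change of 0.01, with mean FPKM of 67.3 in WT and 66.5 in KO. The median log2 fold change of the list was -0.35, and 0 genes were called. *CDKN2B*, whose product binds CDK4 and CDK6, had 36.6, 47.5 and 36.1 FPKM across the WT lines and 25.1, 21.4 and 7.07 FPKM across the KO lines. Its log2 fold change was -1.31 (standard error 0.43, limma, adjusted p = 0.261). *CDKN1A*, which encodes the p53-induced inhibitor p21, had 104, 108 and 112 FPKM in WT and 94.9, 70.1 and 38.1 FPKM in KO lines, a log2 fold change of -0.76 (standard error 0.30, limma, adjusted p = 0.280). Without KO replicate 3, these log2 fold changes were -0.76 for *CDKN2B* and -0.40 for *CDKN1A*. *CDKN2D* and *CDKN1B* had log2 fold changes of -0.34 and -0.28. KO replicate 3, highest for *CDK4* and *CDC25A*, was lowest for *CDKN2B* and *CDKN1A*. The ratio of *CDK4* to the summed *CDKN2A*, *CDKN2B*, *CDKN2C* and *CDKN2D* FPKM was 0.476, 0.481 and 0.796 across the WT lines. It was 1.48, 0.976 and 4.01 across the KO lines (two-sided exact permutation test, p = 0.1). Averaged over the KO lines this ratio, chosen after the values had been seen, was 3.69 times the WT mean, or 2.10 times without KO replicate 3, and the exact permutation p was 0.3 without any 1 of the WT lines.

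Of 13 genes for pocket proteins and E2F factors, 11 had a higher mean in KO, 8 with all KO above all WT libraries, and the median log2 fold change was 0.41. Among all tested genes, 18.3% had every KO library above every WT library. By the unadjusted p and the fold minimum, 5 of the 13 genes were higher and 0 lower, against 10.2% and 2.33% of all tested genes. *E2F1*, an activator of S phase genes, had 6.81, 4.06 and 6.83 FPKM in WT and 13.4, 10.8 and 22.4 FPKM in KO lines, with a log2 fold change of 1.29 (standard error 0.30, limma, adjusted p = 0.261). *E2F3*, a further activator, and *TFDP1*, the partner of E2F factors in DNA binding, had log2 fold changes of 0.75 and 0.65, and *E2F8*, a repressor of the family, of 0.44.

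The 18 S phase entry genes, such as the MCM subunits of the replicative helicase, all had a higher mean in KO. All KO libraries lay above all WT libraries for 16 of them, against 18.3% of all tested genes. By the unadjusted p with the fold minimum 17 were higher, against 10.2% of all tested genes. The median log2 fold change was 0.95. Without WT replicate 2 and KO replicate 3, 8 passed, all higher in KO like 543 of all tested genes, and the median was 0.51. *MCM3*, *MCM2*, *MCM6* and the origin recognition gene *ORC1* had log2 fold changes of 0.94, 1.25, 1.56 and 1.11 (limma, adjusted p = 0.261 for each). Relative to the WT mean, the list median (log2) was 0.12, -0.45 and 0.33 across the WT lines and 0.78, 0.71 and 1.43 across the KO lines.

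The list of 10 later cyclins and kinases also held *CCNC*, *CDK3* and *CDK8*, which are not specific to later phases. Of the 10 genes, 8 were tested. Among these, 0 passed the unadjusted p with the fold minimum, against 10.2% of all tested genes higher and 2.33% lower. Groups without overlap were found for 0 of them, against 18.3% of all tested genes with KO above WT and 5.77% below. The median log2 fold change was 0.02, and its sign turned under median-of-ratios scaling (-0.07). *CCNC*, *CCNF*, *CCNB2* and *CDK3* had the smallest p in this list, with log2 fold changes of 0.18, 0.15, -0.11 and 0.14. *CCNB1*, the main cyclin of mitosis, had 155, 148 and 177 FPKM in WT and 160.5, 134 and 168 FPKM in KO lines. Its log2 fold change was -0.05, as was that of *CDK1*, and that of *CCNA2* was -0.0048.

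Of 11 genes for CDK activation, 3 were higher at the unadjusted p with the fold minimum, against 10.2% of all tested genes. The list had a median log2 fold change of 0.26, or 0.17 without WT replicate 2. *CHEK1*, the checkpoint kinase that marks CDC25A for degradation, had 21.6, 19.6 and 21.3 FPKM in WT and 33.3, 27.4 and 46.2 FPKM in KO lines. Its log2 fold change was 0.73, that of *HSP90AB1*, a chaperone on which CDK4 folding depends, 0.76, and that of *PKMYT1*, an inhibitory kinase, 1.17, or 0.76 without WT replicate 2. *WEE1*, which phosphorylates the residues that CDC25 phosphatases clear, had a log2 fold change of 0.28. Of 15 genes for the turnover of cyclins and inhibitors, 1 was higher by the same thresholds, where 10.2% of all tested genes were. This was *SKP2*, which directs degradation of p27. It had 12.3, 9.41 and 13.6 FPKM in WT and 15.0, 15.9 and 26.3 FPKM in KO lines, and its log2 fold change of 0.64 became 0.39 without KO replicate 3. *CUL1*, *FBXO31* and *FBXO4*, members of the same class of ubiquitin ligases, had log2 fold changes of 0.49, 0.35 and 0.64 (0.39 for *FBXO4* without KO replicate 1 and 0.41 without WT replicate 1), and the median of the list was 0.06. In this list, 9 genes had a higher and 6 a lower mean in KO. All KO libraries lay above all WT libraries for 4 of them and below for 2, against 18.3% and 5.77% of all tested genes. The 2 below were *FBXW7* and *BTRC*, with log2 fold changes of -0.33 and -0.21.

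Of 17 mitogen-responsive regulators, 16 were tested, with a median log2 fold change of 0.44. At the unadjusted p with the fold minimum 7 were higher and 1 lower, against 10.2% and 2.33% of all tested genes. The lower gene was *CCNG2*, with a log2 fold change of -0.81. *FOSL1*, an AP-1 factor, had 6.25, 6.45 and 8.50 FPKM in WT and 19.3, 17.8 and 40.3 FPKM in KO lines, a log2 fold change of 1.71 (limma, adjusted p = 0.261). *FOS*, *DUSP6* (a phosphatase of ERK) and *EGR1* had log2 fold changes of 1.51, 1.10 and 0.81. Without KO replicate 3, that of *DUSP6* was 0.73 and the median of the list 0.23.

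**Figure D4:**
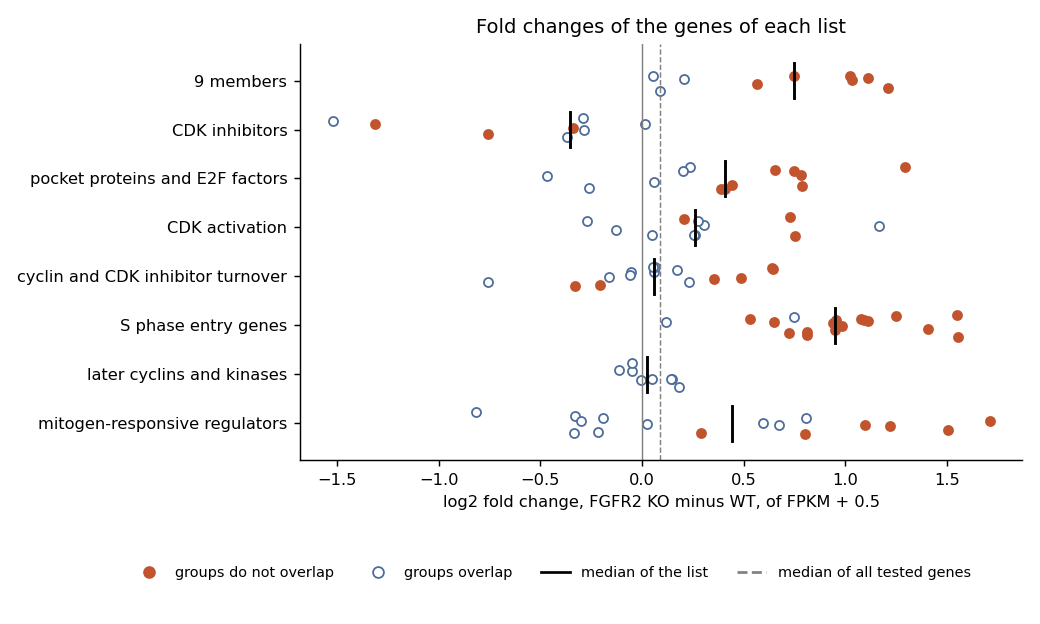
Log2 fold change between *FGFR2* KO and WT of FPKM + 0.5 (x axis) for each tested gene of the members and of the 7 lists. Filled symbols mark genes whose 3 KO and 3 WT libraries do not overlap, black bars the median of a list and the dashed line that of all tested genes. The S phase entry genes have a median of 0.95. The list of later cyclins and kinases, which includes *CCNC*, *CDK3* and *CDK8*, has one of 0.02.

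Among 97 other genes of these lists and members, the profile most like that of each member was sought by the root mean square difference between log2 values, each centred over the 6 libraries. For *CDC25A* this was *MCM2*, with a difference of 0.09 where *CDC25A* itself varied by 0.71 on the same scale. For *CCNE2* it was *MCM5* (0.10), for *CDK2* *SKP2* (0.09) and for *CCND3* *TFDP1* (0.09). *CDK4* was closest to *CDC25A* (0.19) and *CCNE1* to *EGR1* (0.26). *CCND1* was closest to *DDB1* (0.10), *CDK6* to *CCNC* (0.12) and *CCND2* to *CCND1* (0.31). Both *CCND1* and *DDB1* were highest in WT replicate 2, where the median over chromosome 11, which holds *CCND1*, was also highest. These differences describe 6 libraries and were not tested.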

How the data were processed

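Poly(A) RNA from 6 HaCaT lines, 3 WT and 3 *FGFR2* KO, was sequenced with a strand-specific kit, 1 library per line. The authors trimmed reads with fastp 0.20.0 and pseudoaligned them with Kallisto 0.46.1 (versions from the submitters' processing notes) to GRCh38 with GENCODE gene models. They deposited FPKM per gene, and how these were calculated from the Kallisto output is not given in the sources used here. The authors' DESeq2 test needs counts and was not run. Of 21493 genes listed, 18 Y copies of pseudoautosomal genes were left out. Symbols and positions came from GENCODE release 44 (GRCh38), for 21400 of 21475 genes. Depth was estimated from genes with 1 transcript, of whose low values 69.5% to 73.3% were whole fragments within 0.02, against 4% from the tolerance alone. Since this is not nearly all, counts were not rebuilt.

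The 12241 genes whose mean reached 0.5 FPKM were tested in limma 3.58.1 (R 4.3.3) on log2(FPKM + 0.5) with a mean-variance trend and Benjamini-Hochberg adjustment over all tested genes. Fold changes are on the scale of FPKM + 0.5 and understate those of low genes. The thresholds, 0.05 for the adjusted p and 0.5 for the size of the log2 fold change, follow the study. The fit was also tested on simulated data with a fixed spread and larger changes than those of the members, which does not show its power here. Sums, shares and ratios were compared with two-sided exact permutation tests, whose smallest p is 0.1 for 3 against 3. Members and lists were chosen with earlier results of these data known. Named besides the members are *FGFR2*, up to 4 genes of each list with the smallest p, and the profiles most like each member. *CCNB1*, *CCNG2*, *CDK8*, *CDKN3*, *FBXW7*, *BTRC*, single cell type markers, the overlapping genes and the genes in added ratios were chosen after their values were seen. Alternatives were other pseudocounts (0.1 and 1), filters (none, or a mean of at least 2 FPKM) and scalings, no trend, library weights, a replicate block, removal of chromosome medians, and leaving out each library. Leaving out WT replicate 2 and KO replicate 3 together was chosen after seeing the data. Protein sequences were not used here.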

Additional observations from a re-analysis of the deposited data

How the results depend on the processing

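Weighting the libraries by quality was the alternative that gave calls: 1396 genes, among them 5 members (*CCND3*, *CCNE1*, *CDK2*, *CDK4* and *CDC25A*) and 28 genes of the lists, in a fit that gave WT replicate 1 89.7% of the weight of its group. Under the other alternatives, and with 1 library left out (0 to 0), 0 members, 0 list genes and 0 genes in all were called by limma. The smallest adjusted p of all genes then ranged from 0.0819, without WT replicate 2, to 0.576, without WT replicate 1.

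Deviations of same-numbered libraries correlated at -0.21, 0.22 and 0.05, and those of differently numbered libraries at -0.37 to 0.29. With 3 lines a group, these correlations cannot decide whether the replicate numbers pair the lines. With the replicate number as a block, 0 genes were called by limma, with an adjusted p of 0.0972 for *CDC25A* and 0.103 for *CDK4*. The standard error went from 0.30 to 0.20 for *CDC25A*, from 0.33 to 0.20 for *CDK4* and from 0.194 to 0.199 for *CDK6*.

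The log2 fold changes of *CCND3*, *CCNE1*, *CCNE2*, *CDK2*, *CDK4*, *CDK6* and *CDC25A* were positive under all 19 alternatives, from 0.03 for *CDK6* to 1.43 for *CDC25A*. That of *CCND1* turned to -0.00512 with median-of-ratios scaling and ranged from -0.0207 to 0.31 with 1 library left out. That of *CCND2* turned to -0.0208 scaled to nuclear genes, -0.0358 with median-of-ratios scaling, -0.0517 with quantile normalization and -0.0569 with chromosome medians removed, and ranged from -0.22 to 0.51 with 1 library left out and to 0.574 without WT replicate 2 and KO replicate 3. The median of all tested genes went from 0.09 to -0.02 with chromosome medians removed, a shift of over 0.1.

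The KO to WT ratio of summed D-type cyclins ranged from 0.992 to 1.26 with 1 library left out, and fell below 1 without WT replicate 1, WT replicate 3 (0.994) or KO replicate 3 (0.993). That of summed E-type cyclins stayed between 1.73 and 2.44 over its alternatives, and that of the *CDK6* share between 0.540 and 0.668. That of the *CCND2* share ranged from 0.838 to 1.17 (1.04 without KO replicate 3), and the *CCNE1* share of E-type cyclins turned to 0.890 without KO replicate 1.

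The median log2 fold change of later cyclins and kinases turned to -0.0557 scaled to nuclear genes, -0.0707 with median-of-ratios scaling, -0.0816 with quantile normalization, -0.0360 with library weights and -0.0202 with chromosome medians removed, and ranged from -0.12 to 0.0659 with libraries left out. That of the turnover list turned to -0.0226, -0.0380, -0.0562 and -0.0212 under the first 3 of these and with chromosome medians removed. *CCNF* ranged from -0.0616, without WT replicate 2 and KO replicate 3, to 0.277. *CDK3* turned to -0.0608 with library weights and -0.0449 with chromosome medians removed, and ranged from -0.24 without WT replicate 3 to 0.435 without WT replicate 2 and KO replicate 3. The causes were not tested. With 3 lines a group, the exact permutation test could not give a p below 0.1. The lowest value of any member, 1.14 FPKM, compares with 0.0114 to 0.0148 FPKM for 1 fragment on 1 kb.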
